A study of Mus musculus with 39 samples.

Results

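The alpha-arrestins are a small family of arrestin-fold adaptor proteins, and 5 of their genes, Arrdc1, Arrdc2, Arrdc3, Arrdc4 and Txnip, were chosen by name from the 45232 Ensembl gene identifiers counted in mouse quadriceps muscle and epididymal white adipose tissue (eWAT). All 5 had reads in every library, and all 5 passed the filter on low counts in both tissues. Male C57BL/6J mice received chow to week 6, and then for 1 week, to week 7, either a control diet (CD, 10% of energy as fat) or a high-fat diet (HFD, 45%). Chow followed until week 10, after which every mouse, whatever its juvenile diet, was fed the same HFD until tissue was taken at week 22, so no group is lean or chow-fed. The mice were either fed or fasted over the last 16 h. Quadriceps libraries numbered 4 (CD fed), 6 (CD fasted), 4 (HFD fed) and 6 (HFD fasted), and libraries labelled eWAT numbered 4, 6, 4 and 5 in the same order. The labels do not say that each library came from its own mouse, and p-values therefore describe the variation between libraries, which may in part be technical.

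Alpha-arrestins carry PPxY motifs in their tails that bind ubiquitin ligases of the NEDD4 family, and through them they direct receptors and transporters in the plasma membrane to ubiquitination and endocytosis. Txnip, the thioredoxin-interacting protein, also binds thioredoxin and promotes internalisation of the glucose transporters GLUT1 and GLUT4. Txnip and its close relative Arrdc4 are known targets of the glucose-sensing factors MondoA and ChREBP, which bind carbohydrate response elements with Mlx. Arrdc3 is known for its effect on energy expenditure in mice, Arrdc1 for recruiting Tsg101 to vesicles that bud from the plasma membrane, and Arrdc2 has been studied less.

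Between 6199586 and 14993394 reads were counted per library. Levels are given as CPM, the read count normalised to the size of the library, with library sizes scaled by TMM within a tissue unless said otherwise. The quadriceps libraries matched their label: the summed level of 9 fast-fibre markers on plain library sizes was 158000 to 250400 CPM, and that of 11 epididymal markers was at most 1.21 CPM, with 5 of the 11 at 0 in all 20 libraries. In eWAT, 13 of 19 libraries held 17560 to 61510 CPM of the epididymal markers, the transcripts of the sperm duct beside this fat pad, and the other 6 held 6.40 to 42.1 CPM. In 1 HFD fasted eWAT library (replicate 4) the hepatocyte markers summed to 119900 CPM and the adipocyte markers to 1488 CPM. The hepatocyte markers reached 27740 CPM in CD fasted eWAT replicate 1, and testis markers reached 12800 CPM in HFD fasted eWAT replicate 1. Gm42418, which overlaps ribosomal RNA sequence, was abundant in every library, with 24240 to 166600 CPM in eWAT. It reached 291600 CPM in 1 HFD fasted quadriceps library (replicate 4), against 69770 to 237500 CPM in the other quadriceps libraries. That library, replicate 4, held 1 read of Arrdc1 and 5 reads of Arrdc4.

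The members lie on 5 chromosomes of GRCm38. Arrdc1 (ENSMUSG00000026972) is at chr2:24925352-24935252 on the minus strand, Arrdc2 (ENSMUSG00000002910) at chr8:70835129-70839720 on the minus strand, Arrdc3 (ENSMUSG00000074794) at chr13:80883384-80896042 on the plus strand, Arrdc4 (ENSMUSG00000042659) at chr7:68736995-68749241 on the minus strand and Txnip (ENSMUSG00000038393) at chr3:96557957-96561883 on the plus strand. Their exons cover 2510, 3232, 6266, 4039 and 3123 bases in that order. The antisense gene Gm15441 shares 606 of the 3123 exonic bases of Txnip, and since the strand setting of the counting is not given in the sources used here, reads of the pair in that stretch cannot be told apart. Gm15441 itself received at most 7 reads in any quadriceps library. In eWAT it received 169 reads in CD fasted replicate 1, 50 reads in HFD fasted replicate 4 and 8 to 20 reads in the other 17 libraries.

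The promoters were searched on both strands, in the 250 bases before the RefSeq gene start (GRCm38.p6), for 4 motifs of factors known to control members of the family. These were the E-box CACGTG, the carbohydrate response element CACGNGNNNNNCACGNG, the FoxO core GTAAACA and the glucocorticoid response element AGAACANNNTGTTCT. The Txnip and Arrdc4 promoters are shown because they held a match, and that of Arrdc2 because this gene had the largest fasting response in muscle of the 5 and held none.
Txnip, chr3:96557707-96557956, plus strand, with a FoxO core and then a carbohydrate response element in capitals: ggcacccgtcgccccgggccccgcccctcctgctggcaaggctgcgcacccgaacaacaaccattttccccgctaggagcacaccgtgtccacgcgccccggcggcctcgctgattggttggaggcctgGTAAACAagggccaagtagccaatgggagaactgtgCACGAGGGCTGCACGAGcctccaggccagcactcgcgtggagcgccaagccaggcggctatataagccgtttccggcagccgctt
Arrdc4, chr7:68749239-68749488, minus strand, with an E-box in capitals: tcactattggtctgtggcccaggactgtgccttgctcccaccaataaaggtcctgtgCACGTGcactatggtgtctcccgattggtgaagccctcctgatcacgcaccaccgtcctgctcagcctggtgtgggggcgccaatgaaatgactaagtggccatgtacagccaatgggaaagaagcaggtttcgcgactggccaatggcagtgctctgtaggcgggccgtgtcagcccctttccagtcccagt
Arrdc2, chr8:70839721-70839970, minus strand, with no match: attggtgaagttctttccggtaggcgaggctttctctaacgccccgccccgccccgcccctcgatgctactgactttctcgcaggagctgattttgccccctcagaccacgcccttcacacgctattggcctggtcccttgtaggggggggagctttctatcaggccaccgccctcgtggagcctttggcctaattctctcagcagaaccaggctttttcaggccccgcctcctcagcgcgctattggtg
In Txnip the FoxO core lies 121 to 115 bases and the carbohydrate response element 85 to 69 bases before the start. The E-box of Arrdc4 lies 193 to 188 bases before its start. No letters of the 4 motifs were found in these windows of Arrdc1, Arrdc2 or Arrdc3, of which Arrdc3 has 3 RefSeq starts. Among 32851 promoters of the same length, 6.02% held the E-box, 3.17% the FoxO core, 0.0457% the carbohydrate response element (15 promoters) and 0.00913% the glucocorticoid element (3 promoters). The element of Txnip does not hold the E-box letters. Besides Txnip, 13 genes held the carbohydrate response element, and 7 of them were tested in quadriceps.

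With fasting, 3 of the 5 transcripts rose in quadriceps. Arrdc2 rose 11.2-fold, Arrdc3 rose 3.71-fold and Txnip rose 2.2-fold, whereas Arrdc1 and Arrdc4 did not pass the test. In this comparison 37.6% of the 12213 tested genes were called 19.2% higher and 18.4% lower, so a call on its own is common. The 3 members that rose ranked 122 (Arrdc2), 570 (Arrdc3) and 53 (Txnip) among all tested genes by p. In whole tissue, fewer cells of a type and less RNA per cell cannot be told apart.

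Arrdc2 stood at 19.9, 20.8, 23.5 and 30.6 CPM in the 4 CD fed quadriceps libraries. In the 4 HFD fed libraries it stood at 6.40, 11.9, 12.9 and 16.7 CPM. The 6 CD fasted libraries ran from 172 to 310.3 CPM with a median of 222, and the 6 HFD fasted libraries from 87.0 to 234 CPM with a median of 169.5. Every fasted library therefore lay above every fed library, by a wide margin, as did 4.25% of the tested genes, while 2.6% had every fasted library below every fed one. The log2 change averaged over the juvenile diets was 3.49 ± 0.22 (SE; adjusted p = 2.1e-10, edgeR quasi-likelihood test with Benjamini-Hochberg adjustment over all tested genes). It was 3.25 ± 0.30 after juvenile CD and 3.73 ± 0.31 after juvenile HFD (adjusted p = 2.01e-07 and 4.92e-08), contrasts in which 22.4% of genes (12% higher, 10.4% lower) and 21.4% (11.7% higher, 9.7% lower) were called.

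Arrdc3, the member known for its effect on energy expenditure, stood at 4.93, 8.63, 9.32 and 9.37 CPM in CD fed quadriceps and at 8.26, 9.42, 10.0 and 10.0 CPM in HFD fed quadriceps. The CD fasted libraries ran from 22.6 to 54.0 CPM with a median of 30.2, and the HFD fasted libraries from 17.6 to 56.0 CPM with a median of 29.6. The fed and fasted libraries again did not overlap. The average log2 change was 1.89 ± 0.22 (adjusted p = 1.48e-06), with 1.97 ± 0.31 after CD and 1.81 ± 0.31 after HFD (adjusted p = 0.000139 and 0.00028).

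Txnip was the most abundant member and the one with the narrowest spread in muscle. It stood at 389, 395, 434 and 499.9 CPM in CD fed libraries and at 299, 343, 382 and 395 CPM in HFD fed libraries. The CD fasted libraries ran from 722 to 879.6 CPM with a median of 841, and the HFD fasted libraries from 815 to 969.9 CPM with a median of 906. These groups did not overlap between fed and fasted either, and the lowest fasted library was 722 CPM against a highest fed library of 499.9 CPM. The average log2 change was 1.14 ± 0.08 (adjusted p = 4.9e-12). With any 1 of the 20 quadriceps libraries left out, the calls of all 3 genes held, with average changes of 3.38 to 3.6 for Arrdc2, 1.78 to 1.964 for Arrdc3 and 1.1 to 1.18 for Txnip.

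The rise of Txnip was 0.93 ± 0.11 on the log2 scale after juvenile CD and 1.34 ± 0.12 after juvenile HFD (adjusted p = 5.11e-07 and 1e-09). The difference between these responses was 0.41 ± 0.16, with an unadjusted p of 0.0135 and an adjusted p of 1, so it did not pass the test over all genes. No gene was called for this difference in quadriceps by edgeR, although 300 had an unadjusted p below 0.05. DESeq2 called 2 genes and limma voom 0. In a fit that shares 1 spread over all 39 libraries of both tissues, the rise of Txnip lost its call after CD (0.86, adjusted p = 0.485) and after HFD (1.30, adjusted p = 0.205). The corresponding difference for Arrdc2 was 0.48 ± 0.38 (adjusted p = 1).

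Arrdc1, the vesicle-budding adaptor, was near the limit of detection in muscle, with 1 to 48 reads per library. It lay between 0.185 and 3.73 CPM in the 12 fasted libraries and between 1.402 and 3.78 CPM in the 8 fed ones, and the ranges overlapped almost wholly. Its log2 change was -0.07 ± 0.25 (adjusted p = 0.862), and 0.04 without the HFD fasted library in which it had 1 read. Arrdc4, the relative of Txnip, had 5 to 74 reads per library. It lay between 0.924 and 5.51 CPM in fasted and between 2.39 and 4.53 CPM in fed libraries, with a log2 change of -0.12 ± 0.21 (adjusted p = 0.694). Changes of the size of these SE, and changes larger than that, could have been missed at this depth. The confidence interval of the log2 change ran from -0.55 to 0.42 for Arrdc1 and from -0.52 to 0.29 for Arrdc4. Changes within these intervals are not excluded.

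**Figure D1:**
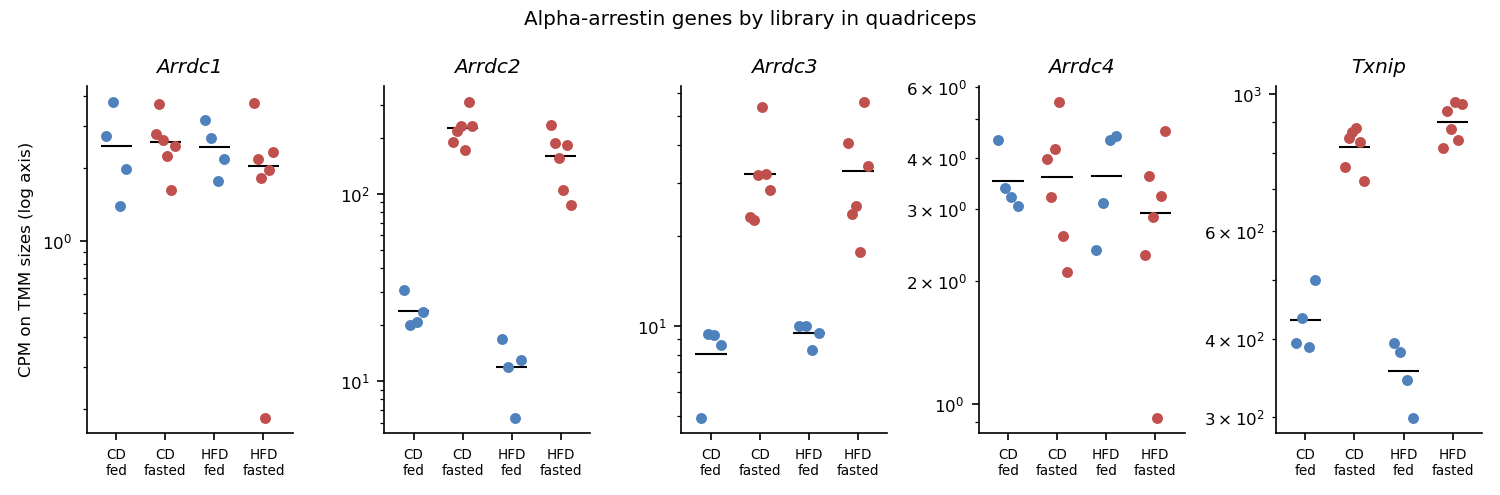
CPM of each gene in the 20 quadriceps libraries on log axes, by juvenile diet and feeding, with fed libraries in blue, fasted libraries in red and black bars for group means. Fed and fasted points are apart for Arrdc2, Arrdc3 and Txnip and mixed for Arrdc1 and Arrdc4.

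The responses of the members were set against each other within each library, where the scaling of the library cancels. Over the 20 quadriceps libraries, 9 of the 10 pairs of members differed in their response to fasting (exact permutation test, two-sided, feeding labels exchanged within juvenile diets, adjusted over 20 tests in both tissues; smallest possible p = 2.268e-05). Arrdc2 rose more than Txnip by 2.34 on the log2 scale (adjusted p = 0.0001134) and more than Arrdc3 by 1.65 (adjusted p = 0.0003239). Arrdc3 rose more than Txnip by 0.69 (adjusted p = 0.0188). Txnip and its relative Arrdc4 parted too, with a difference of Arrdc4 less Txnip of -1.35 (adjusted p = 0.0001512). Arrdc1 and Arrdc4 differed by -0.03 in their responses (adjusted p = 0.9163), the 1 pair that did not pass.

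These unequal responses changed the make-up of the family transcripts in muscle. Per kilobase of exon, Txnip made up 92.9% of the summed level of the 5 genes in CD fed quadriceps (range 91.0% to 94.0%) and 94.1% in HFD fed quadriceps (92.8% to 95.6%). In fasted quadriceps its share was 77.5% after CD (72.3% to 81.5%) and 83.8% after HFD (76.3% to 90.0%). The share of Arrdc2 was 5.01% in CD fed, 3.07% in HFD fed, 20.5% in CD fasted and 14.3% in HFD fasted quadriceps. Arrdc3 stayed between 0.57% and 2.65% in every quadriceps library, although its level rose. Arrdc1 and Arrdc4 together were a trace, with at most 1.01% and 1.09% in any library.

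**Figure D2:**
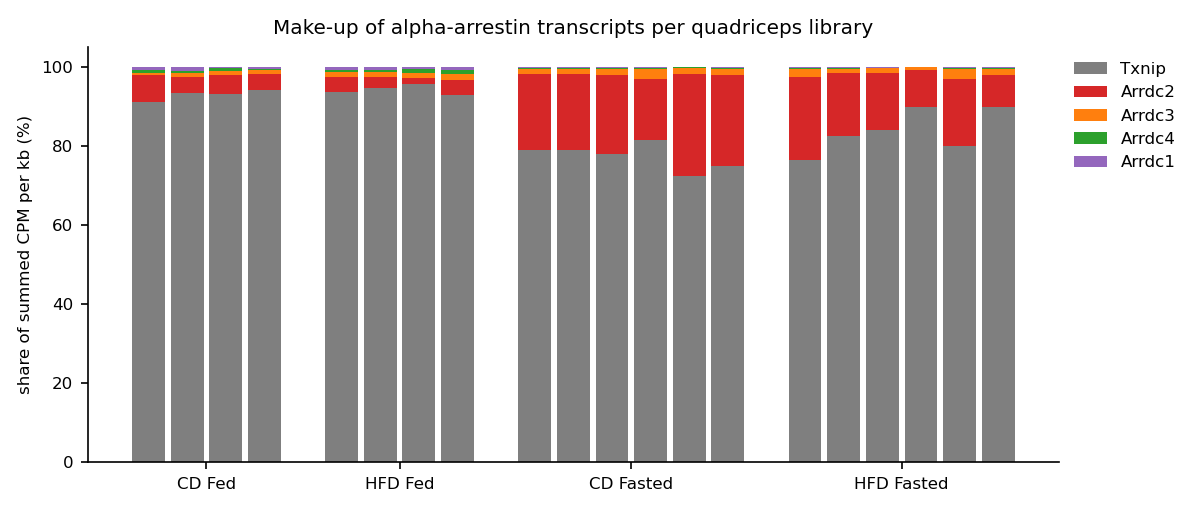
Share of each gene in the summed CPM per kilobase of exon of the 5 genes, as 1 bar for each of the 20 quadriceps libraries, in percent. Txnip fills most of each bar, from 91.0% to 95.6% in fed and from 72.3% to 90.0% in fasted libraries, and Arrdc2 ranges from 1.72% to 25.9% of a bar.

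The order of the groups by mean level in quadriceps was CD fasted, HFD fasted, CD fed and HFD fed for Arrdc2, with means of 224 ± 48.0, 159 ± 55.0, 23.7 ± 4.84 and 12.0 ± 4.26 CPM (SD; n = 6, 6, 4 and 4). The first pair of neighbours in this order overlapped, and the others did not. For Arrdc3 the order was HFD fasted, CD fasted, HFD fed and CD fed, with means of 32.8 ± 14.0, 32.02 ± 11.5, 9.42 ± 0.82 and 8.06 ± 2.12 CPM, and its 2 fasted groups and its 2 fed groups overlapped. For Txnip the order was HFD fasted, CD fasted, CD fed and HFD fed, with means of 900.3 ± 65.4, 818 ± 62.6, 429 ± 51.1 and 355 ± 43.4 CPM, and again neighbours of the same feeding state overlapped. The 4 group means of Arrdc1 (2.04 to 2.58 CPM) and of Arrdc4 (2.94 to 3.62 CPM) all lay within 1 SD of their neighbours.

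Marker sums of other cell types were compared between fed and fasted quadriceps without a test. Within each juvenile diet the fibroblast sum was lower in every fasted than in every fed library, while the adipocyte ranges overlapped. The slow-fibre markers ran from 5.61 to 2103 CPM within the CD fed group. The summed level of the 6 fibroblast markers was 274 to 439 CPM in CD fasted and 146.5 to 548 CPM in HFD fasted libraries, against 465.6 to 831 CPM in CD fed and 621 to 889.6 CPM in HFD fed libraries. The 7 adipocyte markers summed to 122 to 912 CPM in CD fasted and 108.5 to 662 CPM in HFD fasted libraries, against 103 to 269 CPM and 104 to 162 CPM in the fed groups. All 6 and all 7 were detected. With the adipocyte sum as a covariate, the log2 changes were 3.44 for Arrdc2, 1.91 for Arrdc3 and 1.14 for Txnip, each past the threshold. The part of the fibroblast transcripts in these results was not tested.

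Juvenile diet, the factor for which the mice were grouped in early life, was compared next. In quadriceps, Arrdc2 was the member with the largest difference. Its log2 difference, HFD against CD, was -0.74 ± 0.19 on average over feeding states, with an unadjusted p of 0.000996 and an adjusted p of 0.302 in edgeR, where 3 of 12213 genes (0.0246%) were called, 0.0164% of genes in this direction. The same difference was -0.75 in DESeq2, where it passed (adjusted p = 0.015) among 21 called genes, and -0.75 in limma voom, where it did not (adjusted p = 0.236). In fed muscle the difference was -0.98 ± 0.30 (adjusted p = 1), and all 4 HFD fed libraries lay below all 4 CD fed libraries, as did 1.12% of tested genes. In fasted muscle it was -0.50 ± 0.23 (adjusted p = 0.684) and the groups overlapped.

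The other members differed less by juvenile diet in quadriceps. The average log2 difference was 0.13 ± 0.21 for Arrdc3, -0.07 ± 0.08 for Txnip, -0.15 ± 0.25 for Arrdc1 and -0.09 ± 0.21 for Arrdc4, with adjusted p from 0.829 to 0.922. For Txnip it was -0.27 ± 0.12 in fed and 0.14 ± 0.10 in fasted muscle (adjusted p = 1 and 0.807). In fed muscle 1 gene (0.00819%) was called and in fasted muscle 0 by edgeR, although 881 genes had an unadjusted p below 0.05. There DESeq2 called 2 and limma voom 0.

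In the libraries labelled eWAT, no gene was called for fasting averaged over the juvenile diets, although 1448 of 16603 genes had an unadjusted p below 0.05. DESeq2 called 91 genes and limma voom 0. The average log2 changes were 1.19 ± 0.50 for Txnip (adjusted p = 0.55), 0.49 ± 0.23 for Arrdc3 (adjusted p = 0.567), 0.38 ± 0.22 for Arrdc4 (adjusted p = 0.68), -0.04 ± 0.39 for Arrdc1 (adjusted p = 0.993) and -0.04 ± 0.36 for Arrdc2 (adjusted p = 0.992). Libraries of a group differed more here than in muscle, with a biological coefficient of variation of 0.779, against 0.203.

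Txnip varied most among these libraries. It stood at 132, 158, 169.8 and 179 CPM in CD fed eWAT, and the 6 CD fasted libraries ran from 224 to 3066 CPM with a median of 1312. After juvenile HFD it stood at 181, 181, 629 and 1028 CPM in fed and at 117, 192, 244, 276 and 537 CPM in fasted libraries. All CD fasted libraries thus lay above all CD fed libraries, as did 2.52% of the tested genes, while the HFD groups overlapped. The log2 change on fasting was 3.26 ± 0.78 after CD (adjusted p = 0.248) and -0.88 ± 0.70 after HFD (adjusted p = 0.519) in edgeR. After CD it passed in DESeq2 (3.21, adjusted p = 0.00076), in limma voom (2.37, adjusted p = 0.0412) and in the fit of all 39 libraries (3.27, adjusted p = 0.00337). These called 566, 134 and 1163 genes in this contrast, where edgeR within eWAT called 0 and 2572 genes had an unadjusted p below 0.05.

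The difference between these fasting responses of Txnip in eWAT, HFD against CD, was -4.14 ± 1.02 (adjusted p = 0.0366), in a test that called 8.41% of the 16603 genes, 5.82% lower and 2.6% higher. It was not called without a filter on low counts (-4.16, adjusted p = 0.0528), in limma voom (-2.10, adjusted p = 0.109), or when any 1 of 10 libraries was left out (2 of 4 HFD fed, all 4 CD fed, 3 CD fasted and 1 HFD fasted). Its adjusted p was then 0.0535 to 0.101 and its value between -4.22 and -3.53. The high values lay in libraries with few epididymal transcripts. The 3 CD fasted libraries at 1690.1, 2892 and 3066 CPM and the HFD fed libraries at 629 and 1028 CPM had epididymal marker sums of at most 42.1 CPM. The remaining library with so low a sum, the hepatocyte-rich HFD fasted replicate 4, held 244 CPM of Txnip. The 3 CD fasted libraries rich in epididymal transcripts held 224, 371 and 934 CPM of Txnip. The library at 934 CPM, replicate 4, also had the highest adipocyte marker sum of the epididymis-rich libraries, 14150 CPM. Among the 13 epididymis-rich libraries (4 CD fed, 2 HFD fed, 3 CD fasted and 4 HFD fasted), the log2 change of Txnip was 1.70 ± 0.50 after CD and 0.65 ± 0.58 after HFD, and their difference was -1.06 ± 0.74 (adjusted p = 0.621). The changes within a diet are given here as sizes only. Over all alternative fits, the adjusted p of the change after CD ran from 0.00076 (DESeq2) to 0.903, and that after HFD from 0.224 to 0.939. All 4 CD fed libraries were epididymis-rich, so that among the other 6 libraries a CD fasting response could not be formed, and fasting and tissue make-up cannot be told apart there.

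The same split ran through other members in eWAT. Arrdc1 ran from 19.9 to 58.9 CPM in the 13 epididymis-rich libraries and from 3.04 to 19.4 CPM in the remaining 6, with no overlap, as did 11.2% of the tested genes in this direction, while 5.63% were all lower in the epididymis-rich libraries. Arrdc2 ran from 44.8 to 111 CPM in the epididymis-rich libraries and from 16.0 to 59.3 CPM in the remainder, whereas Arrdc3 had medians of 25.5 and 40.3 CPM in that order and overlapping ranges. Arrdc4 had medians of 18.5 and 17.6 CPM. The 7 adipocyte markers summed to 742 to 14150 CPM in the epididymis-rich libraries and 1488 to 42770 CPM in the others.

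The order of the group means in eWAT was CD fed, HFD fasted, CD fasted and HFD fed for Arrdc1 (41.1 ± 10.1, 36.2 ± 23.9, 29.1 ± 12.7 and 27.0 ± 10.9 CPM; SD) and the same for Arrdc2 (86.7 ± 28.3, 73.1 ± 35.1, 63.5 ± 23.2 and 56.8 ± 43.9 CPM). It was CD fasted, HFD fasted, CD fed and HFD fed for Arrdc3 (45.1 ± 19.2, 27.1 ± 6.10, 25.1 ± 5.58 and 24.64 ± 8.996 CPM). For Arrdc4 it was HFD fasted, CD fasted, CD fed and HFD fed (20.7 ± 10.2, 19.4 ± 1.90, 17.8 ± 3.70 and 13.4 ± 1.03 CPM). For Txnip it was CD fasted, HFD fed, HFD fasted and CD fed (1529 ± 1236, 505 ± 408, 273 ± 159 and 159.8 ± 20.1 CPM). Neighbours in each of these orders overlapped in range. Per kilobase of exon, Txnip made up 50.1% of the summed level of the 5 genes in CD fed eWAT, 73.0% in HFD fed, 63.65% in HFD fasted and 83.3% in CD fasted eWAT. Arrdc1, a trace in muscle, made up 15.8%, 7.96%, 10.5% and 5.05% in the same order.

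**Figure D3:**
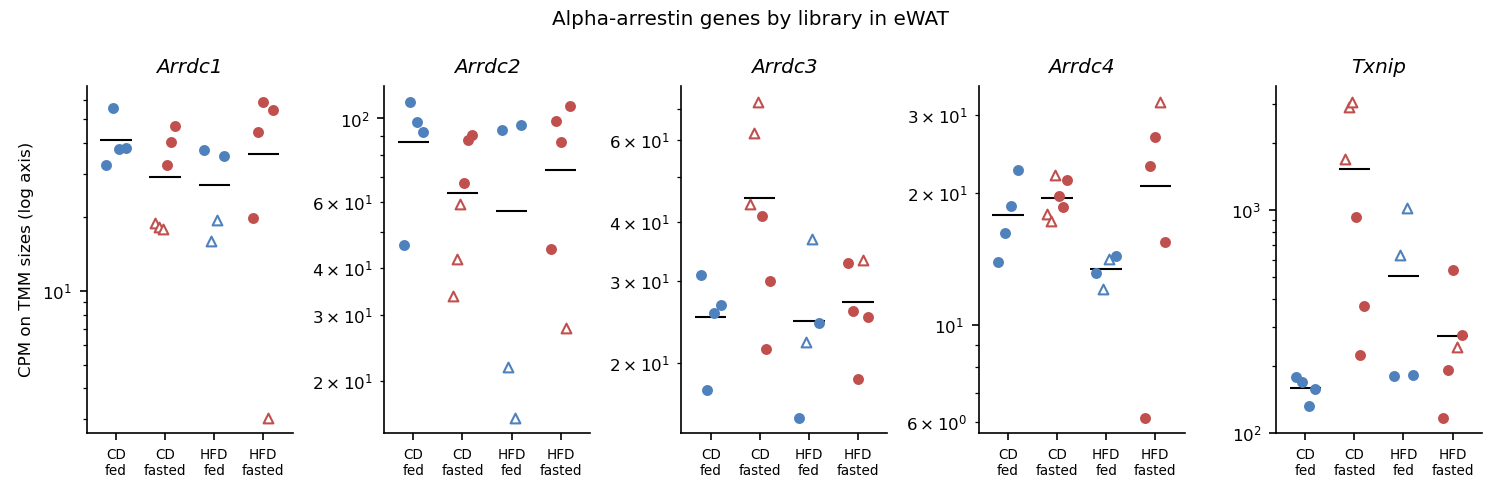
CPM of each gene in the 19 libraries labelled eWAT on log axes, by juvenile diet and feeding, with fed libraries in blue, fasted libraries in red and black bars for group means. Filled circles are the 13 libraries whose epididymal markers exceed 1000 CPM and open triangles the other 6, which hold the 4 highest Txnip values and the 6 lowest Arrdc1 values.

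Juvenile diet in eWAT, averaged over feeding states, called no gene in edgeR, although 282 had an unadjusted p below 0.05. DESeq2 called 1 gene and limma voom 0. The members lay between -0.41 ± 0.49 for Txnip and -0.15 ± 0.39 for Arrdc1 on the log2 scale, each with an adjusted p of 1. Within fasted libraries Txnip was lower after HFD by a log2 difference of -2.48 ± 0.68 (adjusted p = 0.119), which passed in DESeq2 (-2.42, adjusted p = 0.0103) and in the fit of all 39 libraries (-2.50, adjusted p = 0.00485), which called 1078 and 2758 genes in this contrast. By edgeR within eWAT 0 were called, although 3487 had an unadjusted p below 0.05, and limma voom called 0. Within the fasted epididymis-rich libraries this difference was -0.87 ± 0.49 (adjusted p = 0.518). Within fed libraries it was 1.66 ± 0.76 (adjusted p = 0.48), and 0.19 ± 0.56 (adjusted p = 1) within the fed epididymis-rich ones.

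The fasting response of 2 members differed between the tissues in the fit of all 39 libraries. The response of Arrdc2 was larger in quadriceps than in eWAT by 3.49 ± 0.43 on the log2 scale (adjusted p = 2.87e-06) and that of Arrdc3 by 1.36 ± 0.31 (adjusted p = 0.011), in a test that called 2.73% of 17083 genes, 1.79% in this direction and 0.942% in the other. The differences were -0.09 ± 0.48 for Txnip, -0.54 ± 0.33 for Arrdc4 and -0.08 ± 0.50 for Arrdc1 (adjusted p = 1, 0.444 and 1). Leaving out any 1 of the 39 libraries kept the calls of Arrdc2 and Arrdc3, with values of 3.299 to 3.65 and 1.22 to 1.46. That fit shares 1 spread per gene over both tissues, which may be too small for eWAT (coefficient of variation 0.779 against 0.203 in quadriceps). Of the eWAT libraries, 13 were epididymis-rich, unevenly over the groups, with an Arrdc2 median of 92.2 CPM against 30.6 CPM in the other 6. Fasting and tissue make-up are therefore not fully separated on the eWAT side. None of the 10 pairs of members passed for a difference in their fasting response within eWAT, averaged over the juvenile diets (exact permutation test, adjusted p from 0.328 to 0.692). In each pair with Txnip the diets went in opposite directions, which partly cancel in that average. Arrdc1 less Txnip, for example, was at -3.27 after CD and 0.61 after HFD.

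**Figure D4:**
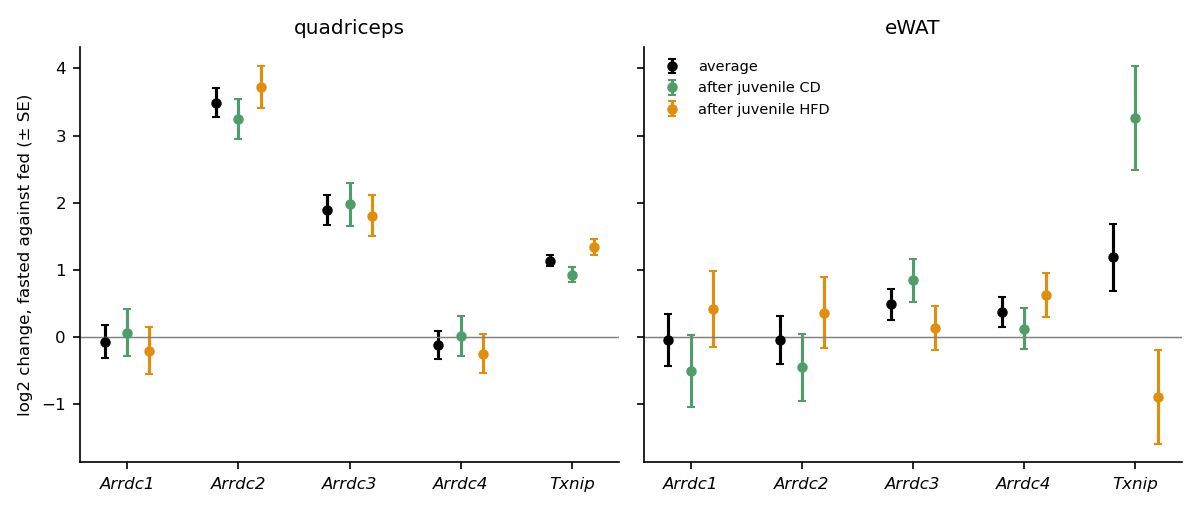
Log2 change of each gene between fasted and fed libraries in quadriceps (left) and eWAT (right), with points for the average over juvenile diets (black), after juvenile CD (green) and after juvenile HFD (orange) and bars of 1 SE. In quadriceps the diets lie side by side for each gene, and in eWAT Txnip is at 3.26 after CD and at -0.88 after HFD.

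The level of each member, averaged over the 4 groups of a tissue, was also compared between tissues. With TMM scaling, quadriceps against eWAT, the log2 difference was -2.52 ± 0.26 for Arrdc1, -1.11 ± 0.17 for Arrdc4, 0.45 ± 0.16 for Arrdc3, 0.96 ± 0.21 for Arrdc2 and 1.69 ± 0.25 for Txnip, all called, as were 83% of genes (28.1% higher and 54.9% lower in quadriceps). TMM factors ran from 0.523 to 0.743 in quadriceps and from 0.887 to 1.89 in eWAT, and on plain library sizes the differences of Arrdc2 (-0.30, adjusted p = 0.192) and Arrdc3 (-0.80, adjusted p = 3.34e-05) changed sign and that of Txnip was 0.42 (adjusted p = 0.118). The eWAT side of this comparison is mostly epididymis-rich tissue (13 of 19 libraries), in which Txnip had a median of 181 CPM against 1359 CPM in the other 6, and Arrdc1 38.3 against 17.97 CPM. The median of all tested genes was -0.64 with TMM and -1.89 on plain sizes. Relative to that median, Txnip lay 2.33, Arrdc2 1.60 and Arrdc3 1.08 higher in quadriceps, and Arrdc4 lay at -0.47 and Arrdc1 at -1.88. The relative values on plain sizes were 2.30, 1.58, 1.09, -0.45 and -1.91.

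The genes around the family were then counted in the quadriceps fasting comparison, beside a median log2 change of -0.02 over all 12213 tested genes, of which 2345 rose and 2243 fell. Among 20 genes of the thioredoxin and peroxiredoxin system, which receives Txnip as an inhibitor, 4 rose and 2 fell, with a median of -0.04. The glutathione reductase gene Gsr rose by 0.81 ± 0.10 (adjusted p = 1.8e-07), the sulfiredoxin gene Srxn1 by 1.45 ± 0.16 (adjusted p = 2.19e-07) and the thioredoxin reductase gene Txnrd1 by 0.60 ± 0.08 (adjusted p = 1.99e-06). Thioredoxin itself, Txn1, was at 0.18 ± 0.13 (adjusted p = 0.281).

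Of 10 tested NEDD4-family ligases and adaptors, the enzymes that alpha-arrestins recruit, 2 rose and 1 fell, with a median of 0.09. Itch rose by 0.48 ± 0.11 and Nedd4 by 0.29 ± 0.08, and Smurf2 fell by 0.33 on the log2 scale (adjusted p = 0.000949, 0.00331 and 0.0133). Of 6 tested arrestin-fold relatives, the beta-arrestin gene Arrb1 fell by 0.40 and Rgp1, which acts in retrograde traffic, rose by 0.26 ± 0.10 (adjusted p = 0.00216 and 0.0367), with a median of -0.02.

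Among 14 tested genes of the Mondo, ChREBP and Mlx system and its carbohydrate response genes, 2 rose and 4 fell, with a median of 0.22. The Kruppel-like factor gene Klf10 rose by 1.54 ± 0.13 (adjusted p = 8.56e-11), the lipid-droplet gene Pnpla3 fell by 1.43 (adjusted p = 4.74e-08) and Mlxipl, which encodes ChREBP, fell by 0.70 (adjusted p = 1.76e-07). Mlxipl stood at 94.3 to 125 CPM in CD fed and 84.9 to 111 CPM in HFD fed libraries, and at 52.4 to 68.1 CPM and 50.3 to 72.7 CPM in the fasted ones. Its fed and fasted libraries did not overlap, as for 2.6% of the tested genes in this direction. Mlxip, which encodes MondoA, rose by 0.22 ± 0.08 (adjusted p = 0.043). Of the 8 tested genes whose promoter held the carbohydrate response element letters, Txnip and Rbbp4 (0.46 ± 0.10, adjusted p = 0.000396) rose and A430005L14Rik fell by 0.40 (adjusted p = 0.00443).

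Of 16 FoxO, glucocorticoid and nuclear receptor regulators, 8 rose and 2 fell, with a median of 0.39. Fkbp5, a chaperone of the glucocorticoid receptor and a target of it, rose by 1.84 ± 0.12, and the glucocorticoid-responsive factors Klf9 and Klf15 rose by 1.44 ± 0.10 and 1.27 ± 0.11 (adjusted p = 7.77e-13, 1.13e-12 and 2.53e-10). Foxo1, a target of insulin signalling, rose by 1.12 ± 0.13 (adjusted p = 5.14e-08). The 2 that fell were Foxo6 (-1.86 ± 0.24, adjusted p = 9.75e-07) and Ppargc1a (-0.82 ± 0.14, adjusted p = 4.47e-05). Tsc22d3 was at 0.28 ± 0.12 (adjusted p = 0.0704) and was not called. Of 8 tested cargo genes of alpha-arrestins, 3 rose and 1 fell, with a median of 0.35. Among them the insulin receptor gene Insr rose by 0.68 ± 0.10 (adjusted p = 1.79e-06) and Slc2a1, the GLUT1 gene, by 0.64 ± 0.17 (adjusted p = 0.00318), and the iron transporter gene Slc11a2 fell by 0.40 (adjusted p = 0.00217). Slc2a4, the GLUT4 gene, was at 0.05 ± 0.08 (adjusted p = 0.613), with 474 to 559 CPM in the 8 fed and 434 to 586 CPM in the 12 fasted libraries.

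Among 9 ESCRT genes, the machinery with which Arrdc1 works, Hgs rose by 0.91 ± 0.10 (adjusted p = 1.7e-08) and no other passed, with a median of 0.11. Tsg101 was at -0.06 ± 0.17 (adjusted p = 0.829). Of 7 tested kinases and partners of Txnip, 3 rose and 1 fell, with a median of 0.25. Ddit4, a stress-induced inhibitor of mTORC1 that is known to bind Txnip, rose by 3.65 ± 0.35 (adjusted p = 3.09e-07), Mtor rose by 0.34 ± 0.09 (adjusted p = 0.00529) and the kinase gene Map3k5 fell by 0.93 (adjusted p = 2.9e-06). No gene of these lists was called for fasting in eWAT or for juvenile diet in either tissue by edgeR, averaged over the other factor. Mlxip, Foxo1, Foxo6, Ppargc1a, Tsc22d3, Slc2a1, Slc2a4, Txn1, Tsg101, Rbbp4 and A430005L14Rik fall outside the naming rule and were chosen after their values were seen.

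**Figure D5:**
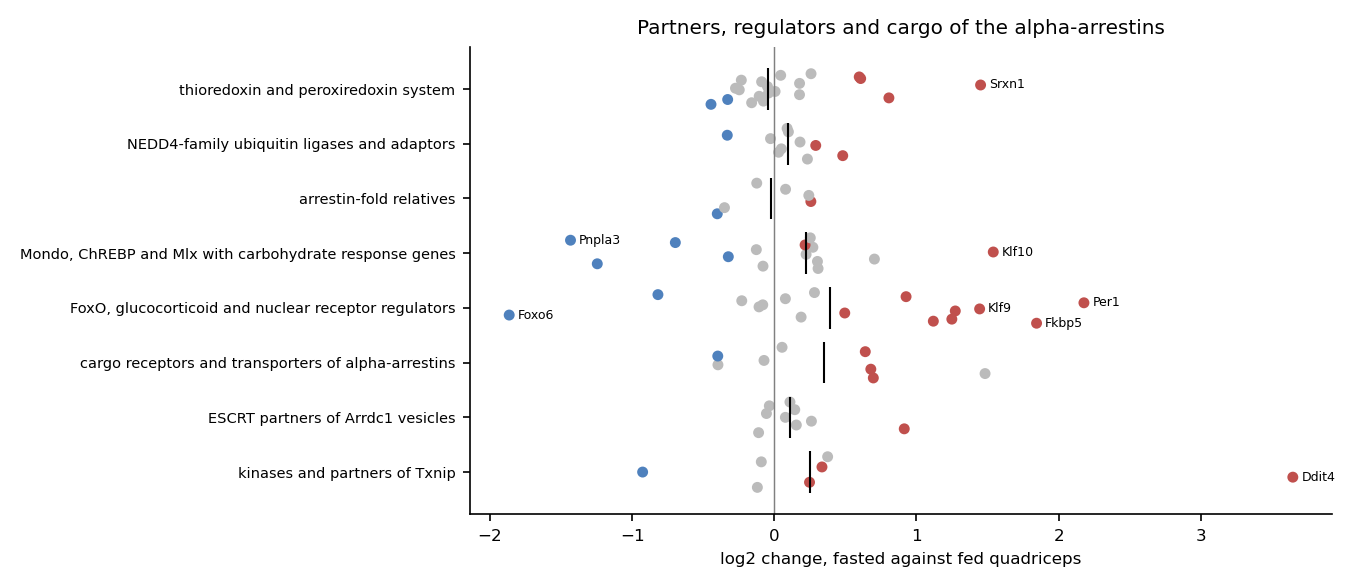
Log2 change between fasted and fed quadriceps of each tested gene in the 8 lists, with genes called higher in red, called lower in blue and not called in grey, black bars at list medians and names beside the called genes with the largest changes. List medians lie between -0.04 and 0.39, and Ddit4 at 3.65 lies farthest from 0.

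The genes with the profile most like that of each member that rose were taken over the 20 quadriceps libraries, from 8491 protein-coding genes, by the root mean square difference of centred log2 CPM. For Arrdc2, whose own profile had a root mean square of 1.79, they were the amino acid transporter gene Slc43a1 (difference 0.49), the transcription factor gene Cebpd (0.51), Ddit4 (0.55) and the muscle atrophy ubiquitin ligase genes Fbxo32 (0.57) and Trim63 (0.59). For Arrdc3, with a root mean square of 0.99, they were Ube4a (0.36), a ubiquitin chain elongation factor, the sestrin gene Sesn1 (0.37), the catalase gene Cat (0.38), Tcp11l2 (0.38) and the cotransporter gene Slc12a2 (0.39). For Txnip, with a root mean square of 0.58, they were Tbc1d17 (0.14), a GTPase-activating protein, the uridylyltransferase gene Tut1 (0.15), Fdft1 (0.16), which encodes squalene synthase, Nub1 (0.17) and the unfolded protein sensor gene Ern1 (0.17). The 3 sets had no gene in common. That says little, because the measure depends on the size of a response and the root mean squares of the 3 members differ. The likeness rests on profiles that feeding state dominates, and the libraries share it.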

How the data were processed

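Poly-A RNA from 39 tissue samples was sequenced on an Ion Torrent Proton, per the labels' protocols. The deposited files hold 1 whole-number read count per Ensembl gene and library, which the authors left unnormalized. The reads were handled with HTSeq 0.6.0, TopHat2 2.1.0 and Bowtie2 2.2.5 on GRCm38, per the submitters' processing notes. Not given in the sources used here are the annotation, the strand setting and what each tool did. Summary lines for unassigned reads were left out. No molecular identifiers were used, so reads are not independent molecules. Symbols came from GENCODE M21 (44585 of 45232 identifiers). No pair of libraries of a group agreed within sampling noise (smallest chi-square per degree of freedom 6.49).

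Genes were filtered by filterByExpr in edgeR 4.0.16 (12213 in quadriceps, 16603 in eWAT, 17083 over all), scaled by TMM, and tested by its robust quasi-likelihood test with 1 mean per group and no covariate, two-sided, at an adjusted p threshold of 0.05 (Benjamini-Hochberg over all tested genes). SE is the log2 change divided by the square root of F. Pairs of members were compared by the exact permutation test on within-library differences of log2 CPM (prior count 0.5). That test was rerun with a prior count of 2, with medians in place of means and with each library left out in turn. Alternatives were RLE scaling, no filter, DESeq2 1.42.0, limma 3.58.1 voom with quality weights, 1 fit of all 39 libraries, Gm42418 left out, epididymis-rich eWAT libraries alone (marker sum above 1000 CPM), the adipocyte marker sum as a covariate, each library left out in turn, and plain library sizes, added after seeing the data. The scripts were tested on simulated data. Members, lists and alternatives were chosen with earlier results of these data known. Genes named are the 5 members, up to 3 per list with the smallest p among those past the threshold in quadriceps fasting, and the 5 protein-coding genes most like each member that passed, among those averaging at least 2 log2 CPM. Protein sequences were not used here. One gene that the naming rule selects is not reported here.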

Additional observations from a re-analysis of the deposited data

Results flagged for a closer look

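Among 40 combinations of member and group, 2 held a library far from the others of its group, where chance flags about 1 in 20. Arrdc3 stood at 54.0 CPM in quadriceps CD fasted replicate 4, and the other 5 libraries of that group lay between 22.6 and 32.2 CPM. Arrdc3 stood at 4.93 CPM in quadriceps CD fed replicate 1, and the other 3 lay between 8.63 and 9.37 CPM.

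The response of Txnip to fasting differed between juvenile diets in eWAT by a log2 difference of -4.14 (adjusted p = 0.0366, test of the interaction). The call was lost in limma voom, without a filter on low counts, among the epididymis-rich libraries and with some single libraries left out. Libraries with few epididymal transcripts fell unevenly over the groups, so juvenile diet, fasting and tissue make-up cannot be told apart here. The response of Arrdc2 to fasting differed between quadriceps and eWAT by 3.49, and that of Arrdc3 by 1.36, in the test of the difference between tissues. The eWAT side of that test is mostly epididymis-rich tissue.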

How the results depend on the processing

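No paired analysis was possible because the labels carry sequencing barcodes and no replicate numbers that groups share. The calls of Arrdc2, Arrdc3 and Txnip for fasting in quadriceps held under every alternative run on the average contrast, with each library left out in turn included. For Txnip the call was narrow in the fit of all 39 libraries (1.08 ± 0.35, adjusted p = 0.0465). The pair test was rerun only with a prior count of 2, with medians in place of means and with each library left out in turn. In quadriceps 9 of 10 pairs of members differed under each of these. In the fit of all 39 libraries, the genes called for fasting in quadriceps numbered 1589 in place of 4588, those for fasting in eWAT 94, those for juvenile diet in quadriceps 0 and those for the eWAT interaction 3764 in place of 1397. In eWAT that fit called 1 member (1163 genes) for fasting after CD and 1 (2758 genes) for juvenile diet in fasted libraries, and the change of Txnip in quadriceps lost its call at 0.86 after CD and 1.30 after HFD. DESeq2 called 1 member for juvenile diet in quadriceps (21 genes), 91 genes for fasting in eWAT, 1 member (566 genes) for fasting after CD in eWAT and 1 (1078 genes) for diet in fasted eWAT, and 867 genes for the tissue difference. Limma voom called 1 member (134 genes) for fasting after CD in eWAT, 0 members and 0 genes for the eWAT interaction and 1878 genes for the tissue difference. Without a filter, 6 genes were called for diet in quadriceps, 0 members and 0 genes for the eWAT interaction and 243 for the tissue difference; plain library sizes gave 236. Among the epididymis-rich libraries, 0 members and 0 genes were called for the interaction.

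Signs changed for 2 called values, Arrdc2 (-0.30) and Arrdc3 (-0.80) between tissues on plain sizes, where 3 members were called in place of 5, and otherwise for values in tests that did not pass. For fasting in eWAT, Arrdc1 was at 0.026 on plain sizes, 0.038 in limma voom and 0.15 in the epididymis-rich libraries, and Arrdc2 at 0.015 on plain sizes. Txnip after HFD, at -0.88 in edgeR, was at 0.26 in limma voom and 0.65 in the epididymis-rich libraries. For juvenile diet in eWAT, Arrdc1 was at 0.14 and Arrdc2 at 0.086 in limma voom, and at 0.0017 and 0.11 in the epididymis-rich libraries. The cause was not tested.

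With 1 library left out at a time, values ranged as follows. For Arrdc1, fasting ran from -0.19 to 0.083 in quadriceps and from -0.17 to 0.13 in eWAT, juvenile diet in eWAT from -0.26 to 0.0030, the tissue difference of fasting from -0.21 to 0.070 and its quadriceps response less that of Arrdc4 from -0.18 to 0.12. For Arrdc2, fasting in eWAT ran from -0.20 to 0.14, and less Arrdc4 from -0.45 to 0.053. Arrdc3 less Arrdc4 in eWAT ran from -0.049 to 0.32. For Txnip, the tissue difference ran from -0.41 to 0.092 and the eWAT interaction from -4.56 to -3.53, with 0 to 1 members and 0 to 2893 genes called. Genes called ran from 0 to 5 for diet in quadriceps and from 317 to 742 for the tissue difference.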
